A study of Mus musculus with 6 samples.

Results

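The genes described here are 33 markers of blood cells other than CD4 T cells, read in RNA of mouse regulatory T cells (Tregs). They comprise 7 B cell genes, 3 plasma cell genes, 10 genes of macrophages, monocytes and dendritic cells, 1 gene of plasmacytoid dendritic cells, 2 neutrophil genes, 2 CD8 T cell genes, 4 natural killer (NK) cell genes and 4 red cell genes. They were taken by gene name from the 55840 genes of the deposited table, and each name matched 1 gene. No measured value of the genes entered their choice as a list of lineage markers, but they were put together as a check of purity when other results of these data were known.

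The study compared wild-type (WT) Tregs with Tregs of the genotype labelled Exon2KO, which the series title names as cells with a Foxp3 lacking exon 2. The cells came from mouse spleen and lymph nodes (LNs), and each genotype had 3 libraries of total RNA. All the labels name the cells as Tregs and give no treatment, strain, age, sex, sorting gate or number of animals per library. The sample titles call the 3 libraries of a genotype biological replicates, without saying whether they came from separate animals, and p-values measure the spread between these libraries. Libraries are named here by genotype and by the number in the name of their column, which is 2, 6 or 20 in each genotype, and no label says what that number stands for. Total counts ran from 17998216 to 21003496 per library.

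Tregs are CD4 T cells that restrain immune responses and depend on the transcription factor Foxp3. In spleen and lymph nodes they lie among B cells, plasma cells, phagocytes, dendritic cells, other T cells, NK cells and, in spleen, many red cells, so a preparation of Tregs can carry RNA of these neighbours. Lineage markers can report on this because many belong to the machinery of those cells. Examples are the B cell receptor, antibody export, phagocytosis, antimicrobial granules, killing and oxygen transport. Some of the genes, such as those of killing, can also be expressed by T cells. Whether RNA of a marker came from other cells or from the Tregs themselves was not tested. In a bulk library, fewer cells of a type and less RNA per cell cannot be told apart.

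Foxp3, the edited gene, had between 602 and 925 CPM, counts scaled to the sequencing depth, in every library, with 712 ± 96.5 CPM (SD, n = 3) in WT and 812 ± 121 CPM (SD, n = 3) in Exon2KO libraries. A count over the whole gene does not show whether exon 2 is present, so it does not check the genotype. CPM here were scaled by the TMM method, which corrects library sizes for differences in RNA composition. The libraries numbered 20 stand apart from the other 4 in many genes, and results that rest on them are given below with and without them.

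All 33 marker genes had at least 2 counts in every library, and all were at low levels. Siglech, Hbb-bs and Hba-a2, with 2 counts each in Exon2KO 20, were there under the floor of 3 counts taken here. Together the 33 marker genes made up between 0.0125% and 0.0191% of the counts of a library. CPM per kilobase of gene length, which allow a comparison between genes, averaged from 0.0953 (Blnk, an adaptor of B cell receptor signalling) to 15.6 (S100a9, a calcium-binding protein of neutrophils). Of the 33 genes, 17 had a mean under 1 and 9 a mean over 5 CPM per kilobase. The 9 genes used as T cell and Treg references (Cd3d, Cd3e, Cd3g, Cd4, Cd5, Foxp3, Il2ra, Ctla4 and Ikzf2) had mean levels between 48.2 (Ikzf2) and 199 (Cd3d) CPM per kilobase. In every library the highest marker gene lay below the lowest reference gene. The ratio of the highest marker gene to the lowest reference gene ran from 0.277 in WT 6 to 0.861 in Exon2KO 6. In WT 6, Cd79b was at 14.9 and the lowest reference, Ikzf2, at 53.9 CPM per kilobase. In Exon2KO 6, Nkg7 reached 28.1 and Ikzf2, again the lowest reference, 32.7 CPM per kilobase. Of the 9 reference genes, 3 (Ctla4, Ikzf2 and Il2ra) were lower in Exon2KO at an adjusted p under 0.05 in the edgeR test described below (33.3%, beside 2.33% of all tested genes). Ikzf2 averaged 59.0 CPM per kilobase in WT and 37.4 in Exon2KO, so the ratio also moved with its reference.

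**Figure D1:**
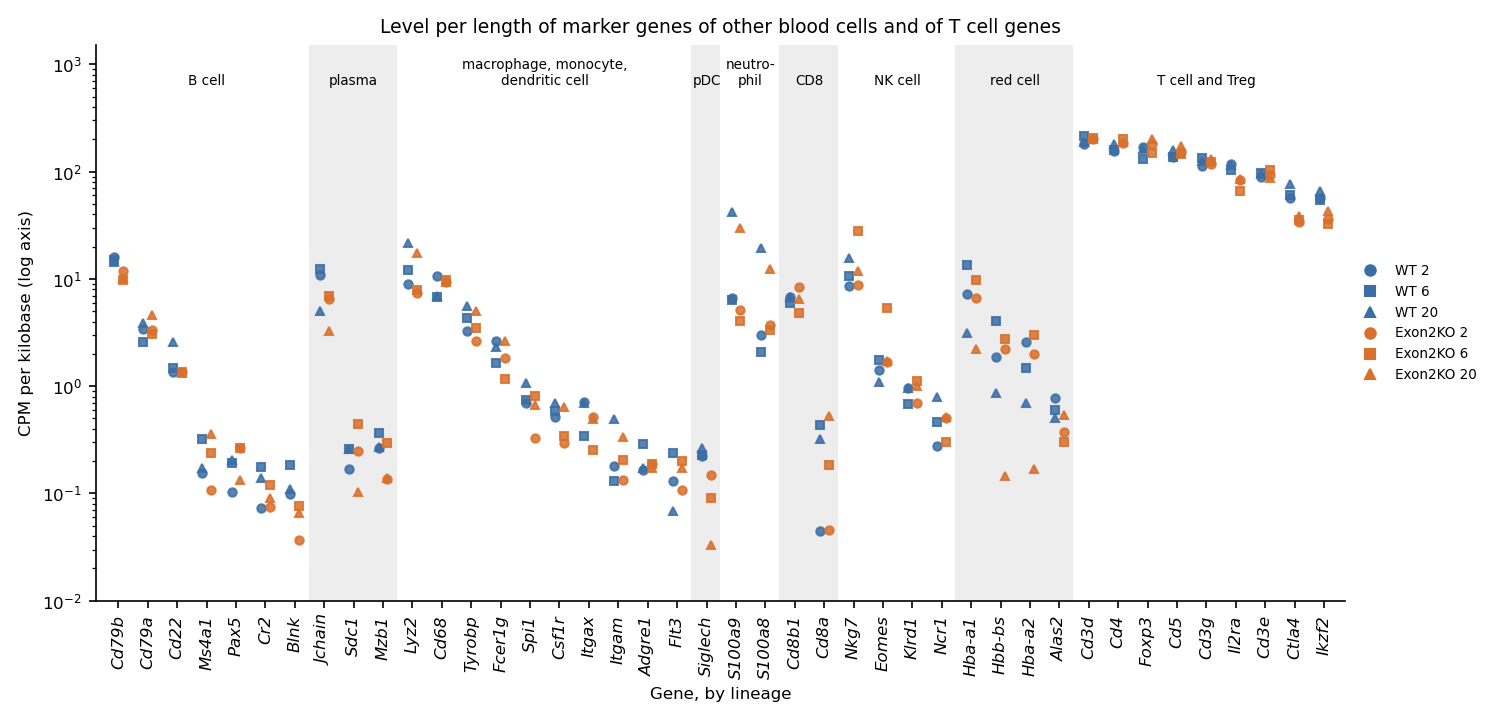
CPM per kilobase (log axis) of the 33 marker genes and the 9 T cell and Treg reference genes, grouped by lineage; blue points are WT and orange points Exon2KO libraries, and the marker shape gives the column number. Mean levels of the marker genes ran from 0.0953 to 15.6, and those of the reference genes from 48.2 to 199 CPM per kilobase.

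The gene at the top of the marker genes was not the same in all libraries. It was Cd79b, a chain of the B cell receptor, at 16.0, 14.9 and 11.8 CPM per kilobase in WT 2, WT 6 and Exon2KO 2. In WT 20 and Exon2KO 20 it was S100a9, at 41.8 and 30.0 CPM per kilobase, and in Exon2KO 6 it was Nkg7, a granule protein of NK cells and activated T cells.

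The promoters of 4 marker genes are shown because these genes formed 2 pairs of neighbours that differed most between the libraries numbered 20 and the others: the alpha globin genes Hba-a1 and Hba-a2, which were low there, and the calgranulin genes S100a8 and S100a9, which were high there. Each stretch holds 250 bases before and 50 after the start of the gene in RefSeq on the build GRCm38.p6, written 5′ to 3′ on the strand of the gene. The promoter table held 24 of the 33 marker genes. Hba-a1 lies at chr11:32283422-32283721 on the plus strand and Hba-a2 at chr11:32296242-32296541 on the plus strand. In both, capitals mark the letters CCAAT, the box bound by factors such as NF-Y, and CACCC, the box bound by KLF factors.
Hba-a1: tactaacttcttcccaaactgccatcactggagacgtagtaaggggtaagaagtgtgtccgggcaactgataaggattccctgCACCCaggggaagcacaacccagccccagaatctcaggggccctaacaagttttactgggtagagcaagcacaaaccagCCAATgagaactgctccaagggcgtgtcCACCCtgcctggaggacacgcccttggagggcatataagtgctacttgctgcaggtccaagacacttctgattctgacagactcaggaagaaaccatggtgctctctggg
Hba-a2: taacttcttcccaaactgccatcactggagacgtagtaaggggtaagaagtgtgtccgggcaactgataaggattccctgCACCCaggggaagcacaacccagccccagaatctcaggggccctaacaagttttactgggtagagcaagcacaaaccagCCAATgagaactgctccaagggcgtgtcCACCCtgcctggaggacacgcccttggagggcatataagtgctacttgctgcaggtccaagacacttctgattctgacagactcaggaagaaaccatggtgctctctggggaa

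Both alpha globin stretches held 1 match to CCAAT and 2 matches to CACCC, searched on both strands. These letters are common: of 32851 promoters of the same length, 37.4% hold CCAAT and 57.5% hold CACCC. The 2 stretches share an unbroken run of 297 of their 300 bases. The transcripts are near copies as well, since the leading transcripts of Hba-a1 (699 bases) and Hba-a2 (554 bases) in GENCODE M21 share a run of 415 bases, and 65.7% of the 150-base windows of the Hba-a2 transcript occur in that of Hba-a1. How reads were divided between Hba-a1 and Hba-a2 is therefore uncertain. The same holds for Hbb-bs, the beta globin gene of the list, which shares a run of 430 bases with Hbb-bt, so that 50.7% of the 150-base windows of the Hbb-bt transcript occur in that of Hbb-bs. Lyz2 and its neighbour Lyz1 share a run of 118 bases and no window of 150 bases (0%).

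The calgranulin promoters lie at chr3:90668821-90669120 on the plus strand (S100a8) and at chr3:90695672-90695971 on the minus strand (S100a9). Capitals mark TATAAA, the TATA box, and GAGGAA or its reverse TTCCTC, a core bound by the myeloid factor PU.1, whose gene Spi1 is itself in the list.
S100a8: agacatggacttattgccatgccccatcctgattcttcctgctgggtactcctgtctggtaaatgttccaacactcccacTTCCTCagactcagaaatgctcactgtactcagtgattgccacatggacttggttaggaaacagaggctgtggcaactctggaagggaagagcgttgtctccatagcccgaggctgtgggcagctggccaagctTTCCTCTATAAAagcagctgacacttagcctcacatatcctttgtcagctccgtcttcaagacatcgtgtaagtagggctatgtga
S100a9: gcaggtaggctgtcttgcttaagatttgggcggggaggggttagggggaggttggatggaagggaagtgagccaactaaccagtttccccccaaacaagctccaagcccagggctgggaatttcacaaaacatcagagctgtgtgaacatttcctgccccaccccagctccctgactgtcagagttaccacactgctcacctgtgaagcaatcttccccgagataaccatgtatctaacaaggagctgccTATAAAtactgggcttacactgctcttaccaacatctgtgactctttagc

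S100a8 held 1 TATAAA and 2 matches to GAGGAA, of which the second adjoins the TATAAA without overlap. S100a9 held 1 TATAAA and 0 matches to GAGGAA in this window, which says nothing about binding of the factor. Over all 32851 promoters, TATAAA occurs in 13.6% and GAGGAA in 28.3%. The counted data do not bear on factor binding at any of these stretches.

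Between the genotypes, no marker gene was called by the test without a block. A gene is called here when its adjusted p falls under 0.05 in edgeR's quasi-likelihood test with Benjamini-Hochberg adjustment over all 14919 tested genes, a test that called 2.33% of those genes. Of the 33 marker genes, 32 passed the filter on low counts, and Mzb1, with 3 to 8 counts per library and 34 in all, did not. Among the 32, the log2 fold change of Exon2KO over WT was negative for 21 and positive for 11, with a median of -0.26, where the median over all tested genes was 0.0084. At an unadjusted p under 0.05 there were 2 of the 32 tested marker genes, Cd79b and Siglech, beside 1810 of the 14919 tested genes (12.1%), and the smallest adjusted p was 0.0828 (Cd79b).

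Libraries with the same column number were treated as pairs. Their deviations from their group means correlated over genes in all 3 pairs. Deviations within a genotype cancel out, so a shift shared by 1 number alone can raise all 3 correlations. Correlations between libraries of different numbers were not computed, so the pairing itself was not tested. With the column number as a block, edgeR called 3 of the 32 marker genes (9.375%), where 9.72% of all tested genes were called. All 3 were lower in Exon2KO: Cd79b, Jchain and Lyz2. Over all tested genes, 5.79% were called lower in this fit. Without the block, DESeq2 called 1 marker gene (Cd79b, where 4.05% of all genes with an adjusted p were called), and edgeR called 1 without a count filter (Cd79b, background 2.3%) and 1 without both libraries numbered 20 (Jchain, background 2.43%). Of the 32 genes, 10 were lower in Exon2KO in each of the 3 pairs (31.25%, against 20.9% of all tested genes), and 1, Eomes, was higher in each (3.125%, against 21.4%). The groups did not overlap for 3 of the 32 genes, all lower in Exon2KO (Cd79b, Blnk and Siglech), where 17.7% of all tested genes had no overlap in either direction.

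**Figure D2:**
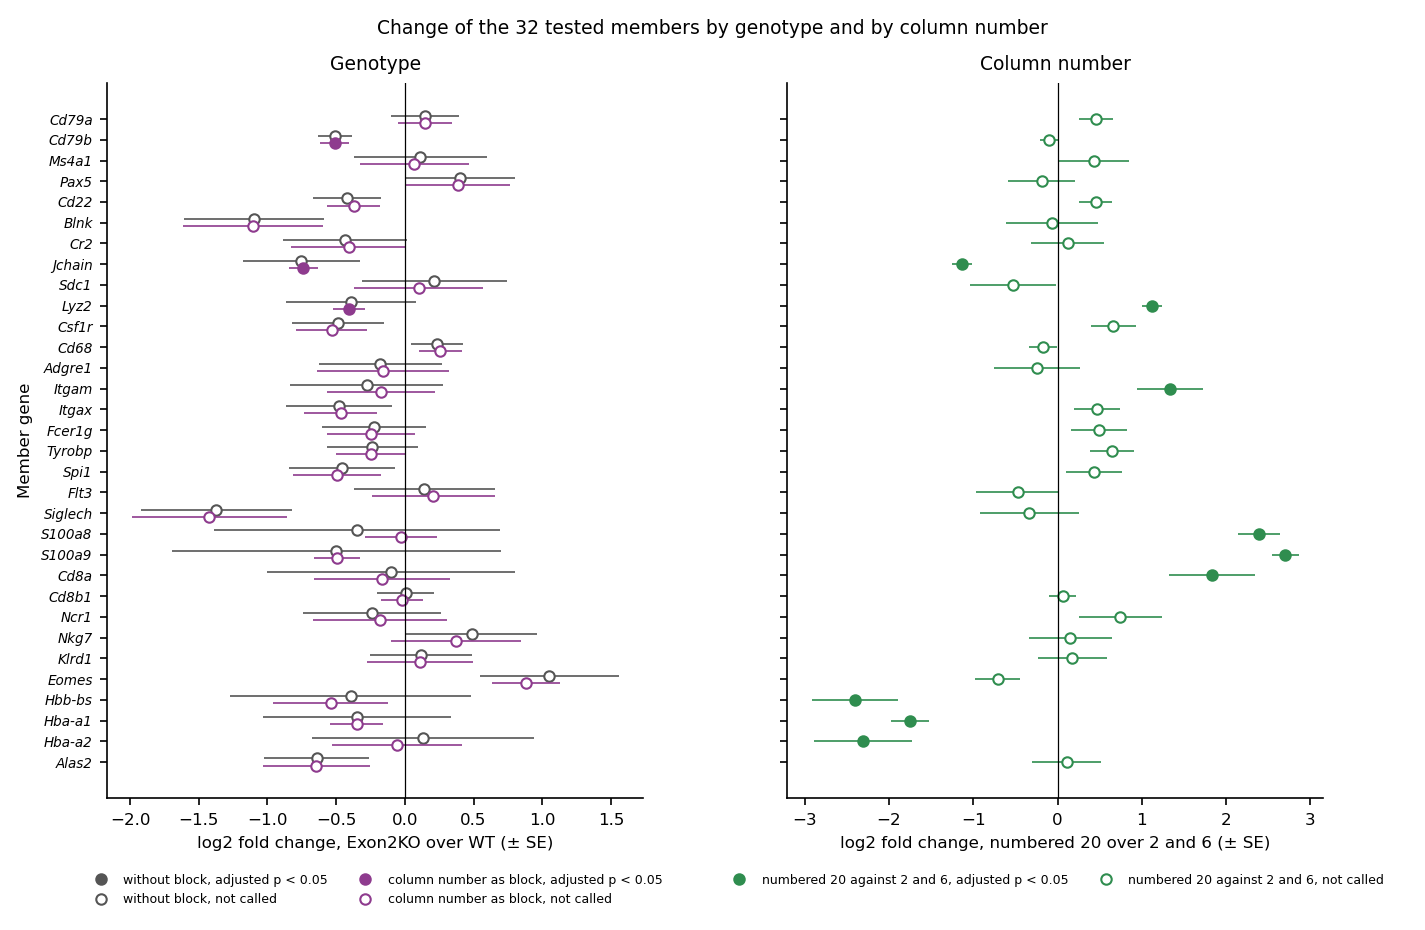
Log2 fold change ± SE of the 32 tested marker genes (the members of the list), for Exon2KO over WT without a block (grey) and with the column number as a block (purple), and for libraries numbered 20 over those numbered 2 and 6 (green). Filled points are called at an adjusted p under 0.05: none in grey, Cd79b, Jchain and Lyz2 in purple, and 9 genes in green.

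B cell genes summed to 40.2 ± 3.20 CPM (SD, n = 3) in WT and 31.9 ± 1.15 CPM (SD, n = 3) in Exon2KO libraries, a ratio of 0.793. The sum was between 37.9 and 43.8 CPM in the WT libraries and between 30.5 and 32.5 CPM in the Exon2KO libraries, so the groups did not overlap. Most of this difference lay in Cd79b.

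Cd79b encodes the beta chain that carries signals from the B cell receptor (gene at chr11:106311341-106314762 in the deposited table). Its level was 22.9, 21.4 and 20.5 CPM in WT 2, WT 6 and WT 20, and 16.9, 14.0 and 14.6 CPM in Exon2KO 2, Exon2KO 6 and Exon2KO 20. All 3 WT libraries were above all 3 Exon2KO libraries. The means were 21.6 ± 1.23 CPM in WT and 15.2 ± 1.56 CPM in Exon2KO (SD, n = 3). The log2 fold change was -0.51 (SE 0.13, adjusted p = 0.0828 by edgeR), and with the block it was -0.51 (SE 0.11, adjusted p = 0.00501 by edgeR). Without both libraries numbered 2, the fit with the block gave -0.55 and an adjusted edgeR p of 0.113, and the call was lost. It was kept without both libraries numbered 6 (adjusted edgeR p of 0.0221) and without both numbered 20 (0.0306). In the authors' deposited table the log2 fold change of Cd79b is -0.51 at an adjusted p of 0.0356, the only marker gene of 33 below 0.05 there, in a table where 2.55% of the genes compared were below it.

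Cd79a, the partner chain of Cd79b in the receptor, was singled out after its values were seen. It had 4.99, 3.75 and 5.68 CPM in WT 2, WT 6 and WT 20, and 4.83, 4.46 and 6.70 CPM in Exon2KO 2, Exon2KO 6 and Exon2KO 20. Its groups overlapped, and its log2 fold change was 0.15 (adjusted p = 0.909 by edgeR). The counts of Cd79b exceeded those of Cd79a in every library, by a ratio between 3.61 and 5.71 in WT and between 2.18 and 3.51 in Exon2KO libraries. The ratio was lowest in Exon2KO 20 (exact 95% interval 1.75 to 2.73, for counting error only) and highest in WT 6 (4.40 to 7.50). Whether Cd79b changed by more than Cd79a was not tested.

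None of the other B cell genes was called. Cd22, an inhibitory receptor, had 7.95 CPM on average and was at 13.0 CPM in WT 20 and between 6.75 and 7.49 CPM in the other 5 libraries. Ms4a1 (CD20), Pax5, the transcription factor that maintains B cell identity, Cr2, a complement receptor, and Blnk averaged between 0.571 and 1.72 CPM. Blnk, singled out after its values were seen, had 11, 20 and 14 counts in the WT libraries and 4, 9 and 7 in the Exon2KO libraries, with a log2 fold change of -1.10 (SE 0.51, adjusted p = 0.44 by edgeR).

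Plasma cells secrete antibody, and Jchain, which joins antibody units into polymers, had the most counts of all 33 genes, 2122 over the 6 libraries. Its level was 27.4, 31.0 and 12.6 CPM in WT 2, WT 6 and WT 20, and 16.4, 17.4 and 8.21 CPM in Exon2KO 2, Exon2KO 6 and Exon2KO 20. It was lower in Exon2KO within each number and lower in both libraries numbered 20 than in the other 4, and the genotypes overlapped through WT 20. The means were 23.7 ± 9.74 CPM in WT and 14.0 ± 5.03 CPM in Exon2KO (SD, n = 3). The log2 fold change was -0.75 (SE 0.42, adjusted p = 0.607 by edgeR), and with the block it was -0.74 (SE 0.11, adjusted p = 0.000273 by edgeR). Without both libraries numbered 20, the fit without a block also called Jchain, at -0.79 (SE 0.14, adjusted p = 0.0148 by edgeR). Without both libraries numbered 2, the fit with the block gave -0.74 and an edgeR adjusted p of 0.0598.

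The other plasma cell genes were far below Jchain. Mzb1, a chaperone of antibody assembly, was at 0.137 to 0.363 CPM per kilobase, against 3.26 to 12.3 for Jchain. The count ratio of Jchain to Mzb1 lay between 38.4 and 98.3, with exact 95% intervals that span from 16.3 to 480 over the libraries because Mzb1 had so few counts. Sdc1 (CD138), the surface marker of plasma cells, had 7 to 33 counts per library and a log2 fold change of 0.21 (adjusted p = 0.948 by edgeR). Summed over the 3 genes, plasma cell markers were at 24.9 ± 9.72 CPM in WT and 15.2 ± 5.68 CPM in Exon2KO (SD, n = 3). The ratio was 0.612, and the sum was lower in Exon2KO within each number.

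The 10 genes of macrophages, monocytes and dendritic cells summed to 45.3 ± 9.81 CPM in WT and 39.3 ± 10.8 CPM in Exon2KO libraries (SD, n = 3). The ratio was 0.868 with overlapping groups, and the sum was lower in Exon2KO within each number. Lyz2, the lysozyme of phagocytes, was at 11.9, 16.1 and 28.5 CPM in WT 2, WT 6 and WT 20. In Exon2KO 2, Exon2KO 6 and Exon2KO 20 it was at 9.78, 10.3 and 23.1 CPM. It was lower in Exon2KO within each number and higher in both libraries numbered 20 than in the other 4, and the genotypes overlapped. The log2 fold change was -0.39 (SE 0.47, adjusted p = 0.865 by edgeR), and with the block it was -0.40 (SE 0.12, adjusted p = 0.0413 by edgeR). That call was lost when any of the 3 pairs was left out. With the block, the log2 fold change of Lyz2 was -0.46 without number 2, -0.30 without number 6 and -0.47 without number 20. The edgeR adjusted p were 0.195, 0.213 and 0.126 in that order.

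None of the other 9 genes of these cells was called by genotype. Cd68, a lysosomal protein, was the next most abundant at 11.1 CPM on average, between 8.59 and 13.3 CPM, with a log2 fold change of 0.23 (adjusted p = 0.756 by edgeR). Itgax (CD11c), Tyrobp and Fcer1g, which are signalling adaptors, Spi1 (PU.1) and Csf1r, the receptor of macrophage growth factor, averaged between 1.78 and 2.97 CPM. Their log2 fold changes lay between -0.49 and -0.22. Itgam (CD11b), Flt3, a receptor of dendritic cell precursors, and Adgre1 (F4/80) averaged between 0.638 and 1.24 CPM. Reads of Csf1r (339 counts in all) are uncertain, since Hmgxb3 overlaps it on the opposite strand with 7148 counts and no source used here says whether counting used the strand.

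Siglech, a surface lectin of plasmacytoid dendritic cells, was the only gene of that lineage in the list. It had 14, 14 and 19 counts in WT 2, WT 6 and WT 20 and 9, 6 and 2 counts in Exon2KO 2, Exon2KO 6 and Exon2KO 20. Every Exon2KO library was below every WT library, at 0.307 ± 0.194 CPM against 0.805 ± 0.0757 CPM (SD, n = 3). The log2 fold change was -1.37 (SE 0.55, adjusted p = 0.337 by edgeR), and -1.42 with the block (SE 0.57, adjusted p = 0.146 by edgeR), so the difference was not called at these counts. Of the wider plasmacytoid genes, Irf8, a transcription factor that Tregs and other T cells can also express, fell by 0.33 on the log2 scale with the block (SE 0.080, adjusted p = 0.0150 by edgeR), and was not called without it. Of the 4 tested wider plasmacytoid genes, 2 had a positive and 2 a negative log2 fold change with the block, and Irf8 alone was called (25%, in a fit that called 9.72% of all tested genes).

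Neutrophils store S100a8 and S100a9, which form the calprotectin dimer. S100a9 was at 3.44, 3.30 and 21.8 CPM in WT 2, WT 6 and WT 20, and at 2.67, 2.10 and 15.6 CPM in Exon2KO 2, Exon2KO 6 and Exon2KO 20. S100a8 was at 2.09, 1.43 and 13.4 CPM in the same WT libraries and at 2.56, 2.31 and 8.55 CPM in the Exon2KO libraries. Both genes were several times higher in the libraries numbered 20, of either genotype, than in the other 4. Their sum was 15.2 ± 17.4 CPM in WT and 11.3 ± 11.2 CPM in Exon2KO (SD, n = 3). The spread within a genotype exceeded the difference between the group means. The sum was lower in Exon2KO within each number, but by little in numbers 2 and 6. For 2, 6 and 20 the sum was 5.22, 4.41 and 24.2 CPM in Exon2KO and 5.53, 4.74 and 35.2 CPM in WT. S100a8 alone was higher in Exon2KO in numbers 2 and 6 and lower in number 20. With the block its log2 fold change was -0.029. By genotype, S100a9 had a log2 fold change of -0.50 (SE 1.20, adjusted p = 0.949 by edgeR), and its direction turned to 1.01 without WT 20, a fit that leaves number 20 with 1 genotype. Within each number S100a9 was lower in Exon2KO, and with the block its log2 fold change was -0.49 (SE 0.17, adjusted p = 0.0814 by edgeR), so it was not called. With both libraries of 1 number left out, the blocked value lay between -0.54 and -0.45.

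The difference between the numbers was tested after the data had been seen, as number 20 against the mean of numbers 2 and 6 in the edgeR fit with genotype and number. That contrast called 9 of the 32 marker genes (28.1%), where 11.1% of all tested genes were called. Of the marker genes 5 were higher in number 20 (S100a9, S100a8, Lyz2, Itgam and Cd8a), where 6.31% of all tested genes were, and 4 were lower (Jchain, Hba-a1, Hba-a2 and Hbb-bs), where 4.8% were. S100a9 rose by 2.70 on the log2 scale (SE 0.16, adjusted p = 3.52e-08 by edgeR) and S100a8 by 2.39 (SE 0.25, adjusted p = 1.71e-05 by edgeR). For S100a8 the difference was 1.81 without WT 20 and 2.94 without Exon2KO 20. Lyz2 rose by 1.12 (SE 0.12, adjusted p = 1.36e-05 by edgeR) and Itgam by 1.34 (SE 0.39, adjusted p = 0.0372 by edgeR).

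Of the 8 genes of the wider neutrophil list, 4 passed the count filter also without both libraries numbered 20, and these were called higher in number 20: Ngp by 2.57, Ltf by 2.60, Camp by 2.56 and Mmp9 by 0.91 on the log2 scale. Cxcr2, a chemokine receptor, passed the filter only with the libraries numbered 20, where it was high, at 1.60 and 1.07 CPM against 0.205 to 0.913 CPM in the other 4, and so had to differ. Ltf, the lactoferrin of granules, was at 14.7 CPM in WT 20 and 8.44 CPM in Exon2KO 20, against 0.889 to 2.67 CPM in the other 4 libraries. Retnlg, a gene of mature neutrophils, did not pass the filter and had 10, 1 and 13 counts in WT 2, WT 6 and WT 20 and 4, 2 and 23 counts in Exon2KO 2, Exon2KO 6 and Exon2KO 20. What the number stands for, and so what moves these genes, was not tested.

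**Figure D3:**
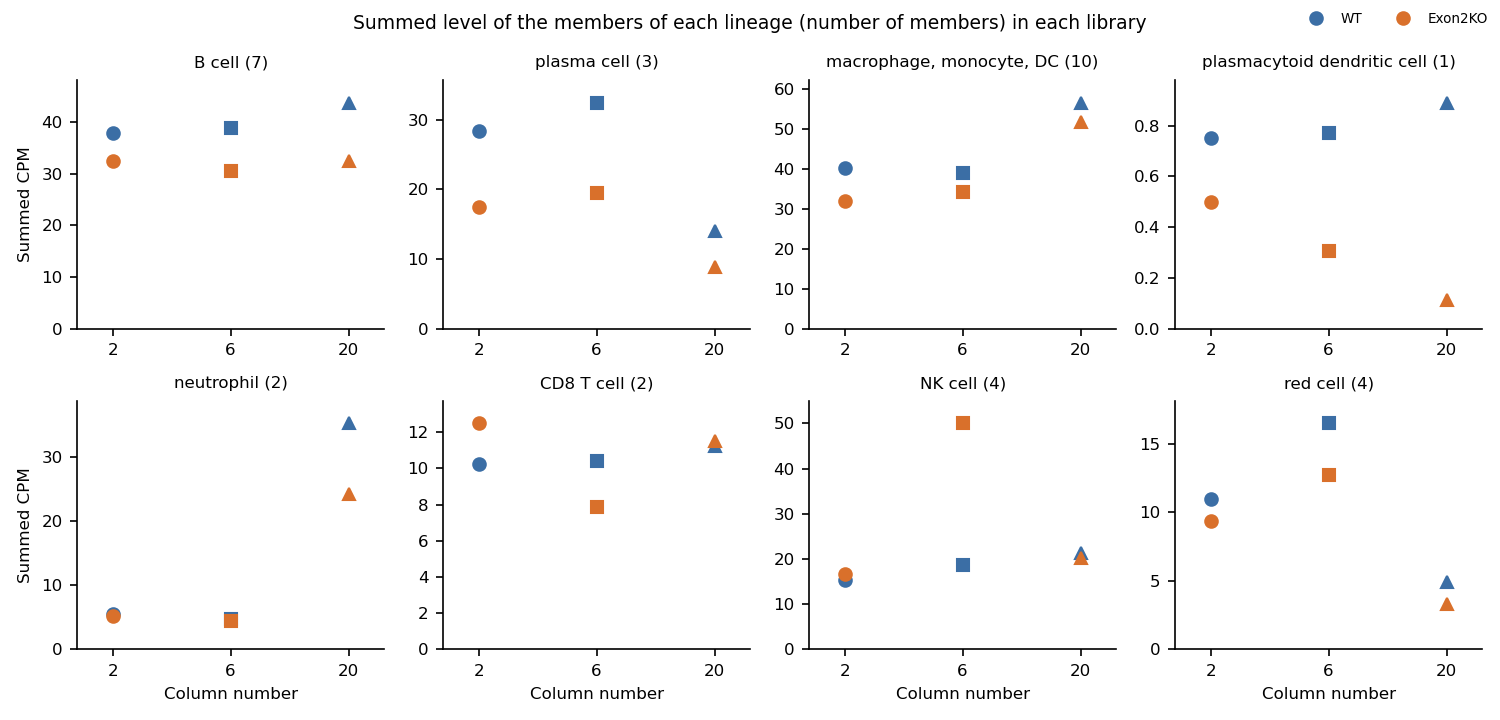
Summed CPM of the marker genes of each lineage (number of genes in brackets) in each library, by column number, with WT in blue and Exon2KO in orange and each axis starting at 0. The neutrophil sum was 5.97 times as high in number 20 as in numbers 2 and 6, and the red cell sum was 0.331 times as high, in WT and Exon2KO alike in direction.

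Of the 4 red cell genes, the 3 globin genes went the other way. Hba-a1, an alpha globin gene, was at 5.91, 11.0 and 2.53 CPM in WT 2, WT 6 and WT 20, and at 5.45, 7.90 and 1.80 CPM in Exon2KO 2, Exon2KO 6 and Exon2KO 20. The libraries numbered 20 were the lowest of their genotype and lower than all the other 4. Hba-a1 fell by 1.76 on the log2 scale in number 20 (SE 0.23, adjusted p = 8.90e-05 by edgeR). Hba-a2 fell by 2.31 (SE 0.58, adjusted p = 0.0187 by edgeR) and Hbb-bs by 2.41 (SE 0.51, adjusted p = 0.00577 by edgeR), with 2 counts each in Exon2KO 20. The size of both depended on the libraries numbered 20: without WT 20 the differences were -3.82 for Hba-a2 and -4.00 for Hbb-bs, and without Exon2KO 20 they were -1.51 and -1.72 and neither was called. Of the 9 genes of the wider red cell list only 2 were tested, and neither is a globin gene. Hemgn (1.31, adjusted p = 0.109 by edgeR) and Epor (0.11, adjusted p = 0.929 by edgeR) had positive log2 differences and neither was called. Hbb-bt, a beta globin gene that did not pass the filter, had 7, 16 and 10 counts in WT 2, WT 6 and WT 20 and 8, 16 and 3 counts in Exon2KO 2, Exon2KO 6 and Exon2KO 20.

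Alas2, the heme synthesis enzyme of red cell precursors, was not called by number (0.11, adjusted p = 0.91 by edgeR). Its 140 counts are uncertain, since Apex2 overlaps it on the opposite strand with 1646 counts. By genotype none of the 4 red cell genes was called. Their sum was 10.8 ± 5.82 CPM in WT and 8.48 ± 4.77 CPM in Exon2KO (SD, n = 3). The ratio was 0.786, and the sum was lower in Exon2KO within each number. Hba-a1 had a log2 fold change of -0.35 (SE 0.68, adjusted p = 0.927 by edgeR), and its direction turned to 0.27 without WT 6. It was lower in Exon2KO within each number, with -0.35 under the block (SE 0.19, adjusted p = 0.326 by edgeR).

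Jchain, of the plasma cells, was also lower in number 20, with a log2 difference of -1.13 (SE 0.12, adjusted p = 1.28e-05 by edgeR). Of the 6 tested genes of the wider plasma cell list, 4 had positive log2 differences, and the 1 called, Fkbp11, was higher in number 20 (1.43, adjusted p = 0.0279 by edgeR). Over all lineages, 11 of the 56 tested wider genes were called by number (19.6%, against 11.1% of all tested genes), 9 higher and 2 lower. The 11 and the 9 include Cxcr2, which passed the filter only with the libraries numbered 20 and so had to differ. Beside Fkbp11, Cxcr2 and the other 4 neutrophil genes, the higher ones were Csf3r (1.94), Mpeg1 (0.77) and Bst2 (0.80). Csf3r and Mpeg1 are of the macrophage list and Bst2 of the plasmacytoid list. The lower ones were Cd72 (-0.74) of the B cell list and Irf8 (-0.30). Cd72 stood apart in number 2 rather than in number 20. It was at 33.1, 14.8 and 12.1 CPM in WT 2, WT 6 and WT 20. In Exon2KO 2, Exon2KO 6 and Exon2KO 20 it was at 33.1, 15.03 and 14.7 CPM. The difference for Cd72 therefore came mostly from its high level in number 2. Of the 32 marker genes, 8 were higher in both libraries numbered 20 than in the other 4 (25%, against 13% of all tested genes). These were Cd79a, Lyz2, Csf1r, Itgam, Tyrobp, S100a8, S100a9 and Ncr1. A further 4 were lower there than in the other 4 (12.5%, against 12.1% of all tested genes). With any single library left out, S100a9, S100a8, Lyz2, Jchain and Hba-a1 were called in each of the 6 fits, with edgeR adjusted p of at most 0.0240. Itgam, Cd8a, Hbb-bs and Hba-a2 lost the call in 3 to 5 of the 6 fits.

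CD8 T cells carry a coreceptor made of the chains Cd8a and Cd8b1. Cd8b1 was at 10.1, 8.81 and 10.1 CPM in WT 2, WT 6 and WT 20, and at 12.3, 7.18 and 9.62 CPM in Exon2KO 2, Exon2KO 6 and Exon2KO 20. Its groups overlapped, with a log2 fold change of 0.0056 (SE 0.21, adjusted p = 0.996 by edgeR) that is negative in several alternative settings. Cd8a, singled out after its values were seen, had 3, 29 and 25 counts in the WT libraries and 3, 13 and 34 counts in the Exon2KO libraries. Both libraries numbered 2 were at 3 counts, which is the floor taken here for a library, while Cd8b1 stood at 188 and 222 counts in them.

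Per length, Cd8b1 exceeded Cd8a in every library, with 4.84 to 8.32 CPM per kilobase for Cd8b1 and 0.0443 to 0.526 for Cd8a. The count ratio of Cd8b1 to Cd8a was 62.7 in WT 2 (exact 95% interval 21.1 to 307) and 74.0 in Exon2KO 2 (25.0 to 362). In the other 4 libraries it lay between 5.03 and 10.8, with intervals that reach at most 20.7. The 2 genes are neighbours, Cd8b1 at chr6:71322788-71337494 and Cd8a at chr6:71373427-71379173 in the deposited table. In number 20 against 2 and 6, Cd8a was higher by 1.83 on the log2 scale (SE 0.51, adjusted p = 0.0294 by edgeR), but it lost the call without WT 2 (1.77, adjusted p 0.221), Exon2KO 2 (1.89, 0.180), Exon2KO 6 (1.39, 0.0986) or Exon2KO 20 (1.04, 0.478). Without WT 20 the difference was 2.66.

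**Figure D4:**
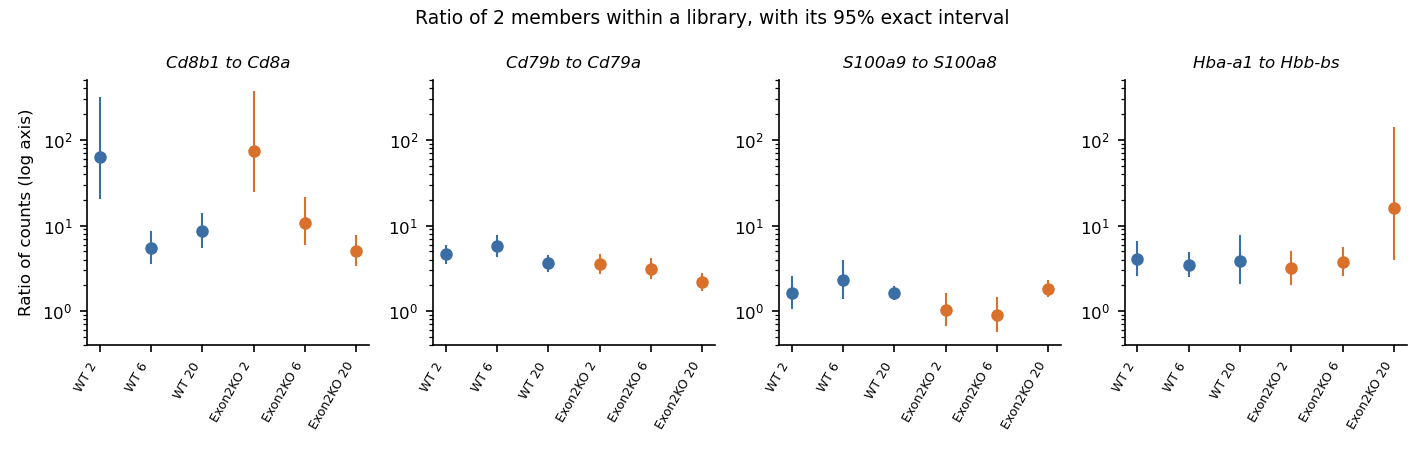
Count ratio of 2 marker genes within each library (log axis), with its exact 95% interval, for the CD8 coreceptor chains, the B cell receptor chains, the calgranulins and the globins; blue is WT and orange Exon2KO. The Cd8b1 to Cd8a ratio stood at 62.7 and 74.0 in the libraries numbered 2 and between 5.03 and 10.8 in the others.

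The ratio of S100a9 to S100a8 counts lay between 0.911 and 2.31 in all 6 libraries, while S100a9 itself ranged from 2.10 to 21.8 CPM. Hba-a1 to Hbb-bs was between 3.16 and 4.07 in 5 libraries. In Exon2KO 20 it was 16.0, resting on 2 counts of Hbb-bs (exact 95% interval 4.08 to 138).

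NK cell genes summed to 18.4 ± 2.97 CPM in WT and 29.0 ± 18.3 CPM in Exon2KO libraries (SD, n = 3), a ratio of 1.57 that came from a single library. Exon2KO 6 stood at 50.1 CPM, and the other 5 libraries between 15.4 and 21.4 CPM. Without Exon2KO 6 the log2 ratio of the group means was -0.00044, against 0.65 with it.

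Nkg7, which takes part in granule release, was at 7.84, 9.69 and 14.4 CPM in WT 2, WT 6 and WT 20, and at 8.06, 25.7 and 10.9 CPM in Exon2KO 2, Exon2KO 6 and Exon2KO 20. Exon2KO 6 was the highest, and the other Exon2KO libraries lay within the WT range. The log2 fold change was 0.49 (SE 0.48, adjusted p = 0.821 by edgeR), and -0.18 without Exon2KO 6.

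Eomes, a transcription factor of NK cells and of effector and memory CD8 T cells, was singled out after its values were seen. It was at 5.91, 7.27 and 4.55 CPM in the WT libraries and at 7.00, 22.5 and 7.15 CPM in the Exon2KO libraries. Eomes was higher in Exon2KO within each number, by the widest margin in number 6. Its log2 fold change was 1.05 (SE 0.51, adjusted p = 0.513 by edgeR), 0.88 with the block (SE 0.25, adjusted p = 0.0612 by edgeR), and 0.25 without Exon2KO 6. Gm33460, which overlaps Eomes on the opposite strand, had 20 counts against 1030 for Eomes.

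The NK cell receptor Ncr1 (NKp46), also singled out after its values were seen, had 8, 13 and 26 counts in WT 2, WT 6 and WT 20 and 14, 9 and 14 counts in Exon2KO 2, Exon2KO 6 and Exon2KO 20. Klrd1 (CD94) was also highest in Exon2KO 6, at 1.44 CPM, but lay between 0.881 and 1.29 CPM in the other 5 libraries. The count ratio of Eomes to Ncr1 was 48.7 in Exon2KO 6 (exact 95% interval 25.4 to 107) and between 3.73 and 13.8 in the other libraries. For Ncr1 and Klrd1 alone, the log2 ratio of the summed group means was -0.014.

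Of the 12 genes of the wider CD8 T and NK cell list, 4 were highest in Exon2KO 6 (Gzmk, Prf1, Klrk1 and Ccl5), 5 in WT 20 (Klrb1c, Klra8, Klra4, Klre1 and Gzmb) and 3 in Exon2KO 20 (Klri2, Gzma and Klrc1). Gzmb, another granzyme, was at 95.9 CPM in WT 20 and 27.5 CPM in Exon2KO 6. Gzmk, a granzyme of memory T cells, was at 0.215, 0.496 and 0.0938 CPM in the WT libraries and at 1.06, 21.8 and 0.225 CPM in the Exon2KO libraries. It had 425 counts in Exon2KO 6 and 2 to 19 in the others, and did not pass edgeR's filter. DESeq2 gave it a log2 fold change of 4.86 (SE 1.67) with an adjusted p of 0.0785, and did not call it. Ccl5, a chemokine of effector T and NK cells, was at 85.6 CPM in Exon2KO 6 and between 8.38 and 19.4 CPM in the other 5 libraries. Prf1 (perforin) was at 15.2 CPM there and between 6.30 and 8.54 CPM in the others. Gzma, a granzyme of NK cells and CD8 T cells, was at 4.36 CPM in Exon2KO 6, the lowest of the 6 libraries, whose highest was 7.99 CPM in Exon2KO 20. Gzmk, Ccl5, Prf1 and Gzma were chosen for display after their values were seen, and the source of the RNA in Exon2KO 6 was not tested.

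**Figure D5:**
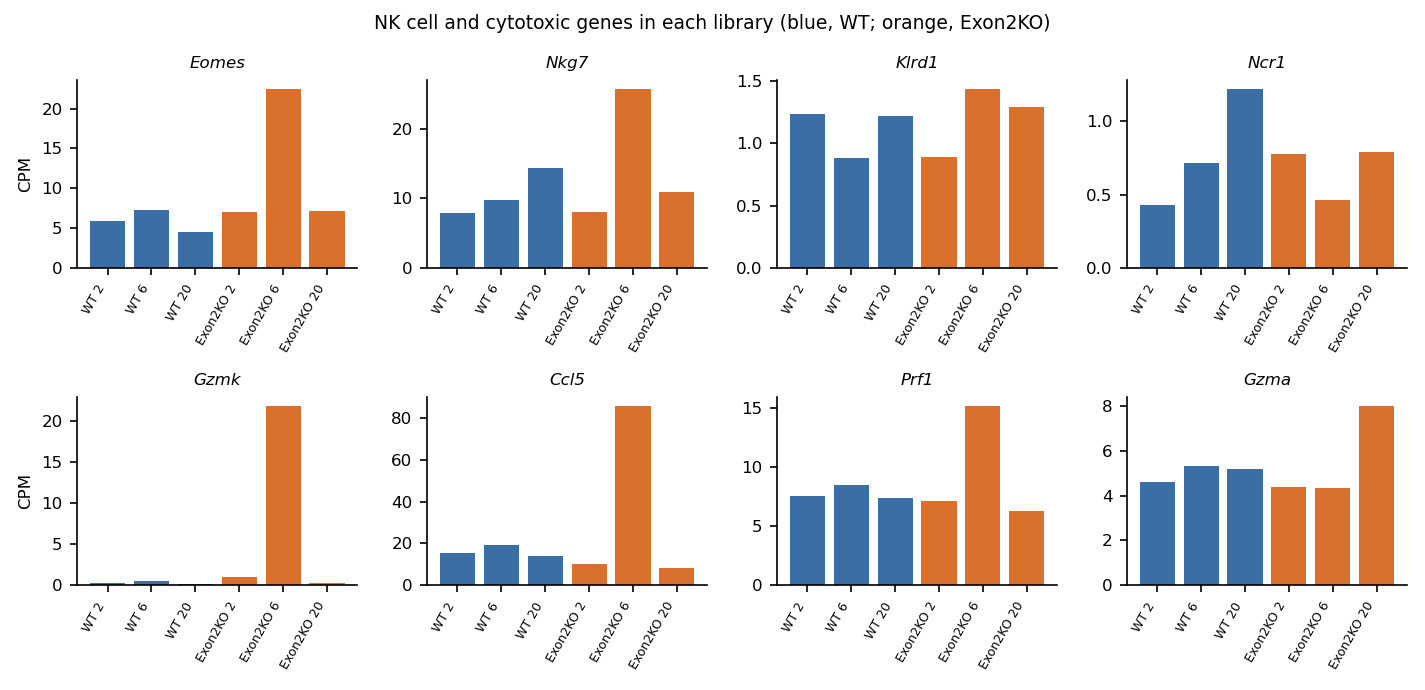
CPM of the 4 NK cell marker genes and of 4 wider cytotoxic genes in each library, with WT in blue and Exon2KO in orange, on linear axes that start at 0 and differ between genes. Eomes, Nkg7, Klrd1, Gzmk, Ccl5 and Prf1 are highest in Exon2KO 6, with Gzmk at 21.8 CPM there, while Ncr1 and Gzma are not.

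A wider set of 89 marker gene names, for the same lineages and for platelets, stroma and endothelium, was looked up in the same fits. Its red cell part held 9 names, of which 8 had values. Of the 89 names, 56 passed the filter. By genotype without the block 0 were called by edgeR, while 10 had an unadjusted p under 0.05, beside 12.1% of all tested genes, and DESeq2 called 2 of the 62 it tested, Pou2af1 and Derl3 (3.23%, against 4.05% of all genes). The median log2 fold change of the 56 was -0.35, beside 0.0084 over all tested genes. With the block 8 were called (14.3%, against 9.72% of all tested genes).

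Those lower in Exon2KO with the block were Derl3 (-1.31), which clears misfolded proteins in secretory cells, Fcmr (-1.23), an IgM receptor, Zbtb46 (-1.05), a dendritic cell factor, Mmp9 (-0.88), Irf4 (-0.34) and Irf8 (-0.33). Those higher were Pou2af1 (0.94), a B cell coactivator, and Pecam1 (0.23), an adhesion molecule of endothelium and leukocytes. Irf4 and Irf8 are also transcription factors of activated T cells. By lineage, the called genes with the block were 2 of 14 for B cells, 2 of 6 for plasma cells, 1 of 12 for macrophages and related cells, 1 of 4 for plasmacytoid dendritic cells, 1 of 5 for neutrophils, 0 of 10 for CD8 T and NK cells, 0 of 2 for red cells, 0 of 1 for platelets and 1 of 2 for stroma and endothelium. Gp1bb of platelets and Col3a1, Pdpn and Ccl19 of stroma were at 0 counts in all 6 libraries.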

How the data were processed

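RNA of 6 Treg libraries, 3 WT and 3 Exon2KO, was measured by RNA sequencing of total RNA. The deposited table holds counts per gene, which are raw whole numbers per the file headers, and gene lengths. From the authors' own comparison, which gives group means as a scaled signal, the log2 fold change with its p-value before and after adjustment is quoted where that table is named. A further 6 per-library columns of another measure were not used. The submitters' processing notes name HISAT2 2.0.5, StringTie 1.3.3b, featureCounts 1.5.0-p3, DESeq2 1.16.1 and the build mm10. The strand setting is not given in the sources used here.

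Columns carry the genotype and a number (2, 6 or 20) that is not the replicate number of the sample titles, so columns were mapped to groups only. Counts were tested with edgeR 4.0.16 (limma 3.58.1, R 4.3.3): TMM scaling, filterByExpr, robust quasi-likelihood fit, two-sided tests, Benjamini-Hochberg adjustment over all tested genes, called at an adjusted p under 0.05. CPM use TMM-scaled library sizes, and CPM per kilobase divide them by the deposited gene length. The SE is the absolute log2 fold change divided by the square root of F. Same-numbered libraries deviated together over 14919 genes (correlations 0.272, 0.369 and 0.494 for numbers 2, 6 and 20). Correlations between differently numbered libraries were not computed, so these values do not test the pairing. Values with the number as a block are printed where a call changes. No label but the shared numbers gives this pairing. Alternatives were other count filters and scalings, DESeq2 1.42.0, the block, and libraries left out. Ratios within a library have exact 95% binomial intervals, which cover counting error only. A floor of 3 counts per library equals 0.141 to 0.169 CPM. Same-genotype libraries differed by a chi-square per degree of freedom of 8.12 to 23.6 over genes, so none was a duplicate. The fitting steps were run on simulated counts that had the same dispersion in every gene and no effect of the column number. That run therefore does not check calls that rest on the block.

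The marker genes and the wider lists were chosen with earlier results of these data known. Values in every library are given for marker genes called with or without the block, for the gene with the most counts in each lineage and for S100a8, Cd79a, Cd8a, Eomes, Blnk and Ncr1, which were chosen after their values were seen, and other genes are described by ranges. Promoters are RefSeq's on GRCm38.p6, and overlaps and transcripts are from GENCODE M21. A further result is not reported here.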

Additional observations from a re-analysis of the deposited data

How the results depend on the processing

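Of 408 alternative values of the 32 marker genes by genotype, 362 kept direction and side of the threshold, 6 over 3 genes gained the call and 40 over 18 genes changed direction. None of the 18 was called without the block, and Lyz2 was called with it. Marker genes called by genotype numbered 3 with the replicate block, 1 with DESeq2, 1 with no count filter, 1 without both libraries numbered 20 and 0 with any single library left out. With the block, both libraries of number 2 left out gave 0, of number 6 gave 2 and of number 20 gave 2. Over all tested genes, these fits called 277 of 15111, 1441 of 15214 and 900 of 14926, in that order. Wider genes called numbered 1 of 36 tested with at least 10 counts in every library (2.44% of all tested genes called), 2 of 62 with DESeq2 (4.05%), 4 of 84 with no count filter (2.3%), 8 of 56 with the block (9.72%), 1 of 56 without both libraries numbered 20 (2.43%), and 0 to 2 over single libraries left out (0.557% to 2.05%). Titles' replicate numbers could not serve as a block.

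Direction changed without both libraries numbered 20 for Ms4a1 (-0.44), Itgam (0.11), Flt3 (-0.26), S100a8 (0.46) and Ncr1 (0.11). It changed with the replicate block for Cd8b1 (-0.017) and Hba-a2 (-0.059). For Cd8b1 it also changed with at least 10 counts (-0.0047), no filter (-0.0019) and upper-quartile scaling (-0.010).

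The log2 ratio of summed B cell genes was -0.12 with the wider list, and -0.22 in pair 2 and -0.43 in pair 20 (within the replicate block). The macrophage sum was -0.60 with the wider list. The plasmacytoid sum was 0.0083 with the wider list (61.8% of it Bst2, at 103 CPM on average, against 0.556 CPM for Siglech), -0.59 in pair 2 and -2.99 in pair 20. The CD8 sum was 0.29 in pair 2 and -0.41 in pair 6. The NK sum was -0.056 with the wider list, 1.43 in pair 6, -0.084 in pair 20 and -0.014 for Ncr1 and Klrd1 alone. The cause of these shifts was not tested.

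With each library left out in turn, which leaves 1 number with 1 genotype, the log2 ratios of the sums ranged as follows, from lowest to highest: B cell -0.38 to -0.27, plasma cell -0.996 to -0.43, macrophage -0.45 to -0.011, plasmacytoid -1.94 to -0.99, neutrophil -1.65 to 1.14, CD8 -0.14 to 0.18, NK cell -0.00044 to 0.93 and red cell -0.76 to 0.099. The red cell sum turned positive without WT 6 (0.099) or Exon2KO 20 (0.036). Over the same 6 fits, the log2 fold changes by genotype that changed direction ranged as Cd79a -0.055 to 0.28, Ms4a1 -0.31 to 0.50, Sdc1 -0.39 to 0.59, Lyz2 -0.91 to 0.040, Adgre1 -0.32 to 0.12, Itgam -0.69 to 0.51, Fcer1g -0.55 to 0.017, Flt3 -0.21 to 0.70, S100a8 -1.23 to 1.33, S100a9 -2.01 to 1.01, Cd8a -1.20 to 0.43, Cd8b1 -0.21 to 0.17, Ncr1 -0.53 to 0.23, Nkg7 -0.18 to 0.78, Klrd1 -0.040 to 0.29, Hbb-bs -0.92 to 0.34, Hba-a1 -0.84 to 0.27 and Hba-a2 -0.54 to 0.67. Number 20 against 2 and 6 called 5 to 9 marker genes over the same fits. For that contrast, the share of all tested genes called is given for the fit with all libraries only (11.1%). The range over the fits with a library left out therefore has no background to be set against. Of the 33 marker genes, 9 had under 10 counts in at least 1 library, which limits their precision: Blnk, Mzb1, Sdc1, Flt3, Siglech, Cd8a, Ncr1, Hbb-bs and Hba-a2.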
